A study of Mus musculus with 371 samples.

Results

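The genes described here were S100a4, S100a6, S100a10, S100a11 and S100a13 of the S100 family, together with Anxa2, Crip1, Emb, Lgals1 and Vim, which are 10 of the 23362 genes used from a table of expression in single T cells made with Smart-seq2, which reads full-length transcripts. They were chosen by name, with the differences between genotypes in these cells already in view, and were then read in the 350 cells that had at least 1000 genes at 1 FPKM or above, after 21 others were left out. FPKM is the number of fragments scaled by transcript length and by the sequencing depth of the cell, here scaled between cells by the submitters with TMM. The cells were T cells that had infiltrated B16F10 melanomas, a transplantable mouse tumour line, in C57BL/6 mice. They came from 4 sets of cells, called pools here, a word that the titles do not use. Of the CD4 sort, 89 of 93 deposited KO cells and 85 of 94 WT cells were kept. Of the CD8 sort, 86 of 90 KO cells and 90 of 94 WT cells were kept. KO animals lack the IL-27 receptor gene Il27ra. CD4 cells were divided by the transcript of Foxp3, the transcription factor of regulatory T cells, at 1 FPKM, which gave 35 KO and 46 WT Foxp3 positive cells and 54 KO and 39 WT Foxp3 negative cells. The lowest Foxp3 value among positive cells was 9.65 FPKM, and the highest among negative cells was 0.67 FPKM. Cell titles name the sort, whereas the treatment text speaks of CD8+ cells for all of them, so the sort was read from the titles. The titles end in p1 for CD8 cells and in p2 for CD4 cells, so whatever that mark stands for cannot be told apart from the sort. They also hold a word: rabbit for KO CD4, cat for WT CD4, bird for KO CD8 and dog for WT CD8 cells. This word coincides with genotype and sort and cannot be told apart from them. What it stands for is not said in the titles, nor is the meaning of the number after KO or WT. Each genotype and sort was a single pool with no replicate, so differences between pools have no test, and pool and genotype cannot be told apart. SDs below are over cells, and intervals on shares are 95% exact Clopper-Pearson intervals that cover counting error only.

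S100 proteins are small calcium-binding proteins that change shape on binding calcium and then attach to partner proteins, many of them in the cytoskeleton and at the cell membrane. Several members of the set meet in the same structures: S100a10 (p11) forms a complex with annexin A2, the product of Anxa2, beneath the plasma membrane, and S100a11 pairs with annexin A1. In T cells, S100a4, S100a6, S100a10, Crip1, Lgals1 and Vim are commonly seen together in activated, effector and memory cells and in regulatory T cells of tissues, and are low in naive cells.

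The sort markers fitted the titles. Cd4 reached 10 FPKM in 85.4% of KO and 83.5% of WT cells of the CD4 sort and in no cell of the CD8 sort, and Cd8a plus Cd8b1 reached it in 95.3% of KO and 92.2% of WT cells of the CD8 sort. Il27ra was read in 50.6% of KO and 50.6% of WT CD4 cells and in 53.5% of KO and 51.1% of WT CD8 cells, but a value summed over the whole gene does not tell a deleted exon from a kept one, and the genotype labels were therefore not checked by it. The median number of detected genes was 1868 in KO and 1661 in WT CD4 cells, and 1955 in KO and 2148 in WT CD8 cells. The sum of the fibroblast, endothelial and keratinocyte markers had a median of 0 FPKM in every class of cells. Neutrophil markers summed to at least 10 FPKM in 16.9% of KO and 21.2% of WT CD4 cells and in 27.9% of KO and 23.3% of WT CD8 cells. Of these 5 markers, Cxcr2 was read in 86.5% of KO and 85.9% of WT CD4 cells and in 88.4% of KO and 91.1% of WT CD8 cells, at no more than 34.74 FPKM in any cell, and Csf3r in 39.3% of KO and 44.7% of WT CD4 cells and in 48.8% of KO and 43.3% of WT CD8 cells. S100a8 was read in none of the 350 cells, and S100a9 and Retnlg were each read in 1.18% of WT CD4 cells and in no others, at up to 3.09 FPKM. Dendritic cell markers summed to at least 10 FPKM in 57.1% of KO and 52.2% of WT Foxp3 positive cells, against 18.5% of KO and 10.3% of WT Foxp3 negative cells, and in 5.81% of KO and 13.3% of WT CD8 cells. Melanoma markers summed to at least 10 FPKM in 16.9% of KO and 29.4% of WT CD4 cells and in 31.4% of KO and 34.4% of WT CD8 cells, and myeloid markers in 7.87% of KO and 12.9% of WT CD4 cells and in 9.30% of KO and 6.67% of WT CD8 cells. Beyond the values given below without marker-bearing cells, the part of these markers in the results was not tested. One KO CD4 cell, Foxp3 negative, had a hemoglobin sum of 627009 FPKM.

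The 5 S100 genes lie on mouse chromosome 3 in a run of 14 S100a genes between positions 90511034 and 93564645 (GRCm38.p6, the assembly behind mm10), all members on the plus strand. S100a13 (90514233 to 90524581), S100a4 (90603770 to 90606045) and S100a6 (90612894 to 90614414) are close together. S100a11 (93520496 to 93526288) and S100a10 (93555117 to 93564645) lie next to each other at the far end. Between S100a4 and S100a6 lies S100a5, which was read in no cell of any pool, which in KO CD4 cells allows a share of up to 3.37%, taken as 3 cells of the total. The remaining members are on other chromosomes: Anxa2 on 9, Crip1 on 12, Emb on 13, Lgals1 on 15 and Vim on 2. Exons of S100a4, Anxa2 and Emb overlap those of predicted genes with no entry of their own in the table, so reads shared with those genes cannot be told apart.

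Windows of 250 bases at the start of 8 members were available from RefSeq (GRCm38.p6), and all but that of S100a13 lie before the start. The S100a13 window, 90514185 to 90514434, begins before the gene start at 90514233 and lies mostly inside the gene. It is counted among the 8. Windows are shown for S100a6 and Emb, whose means differed most between genotypes in CD4 cells among these 8, for S100a11 and Vim, which were lowest in KO relative to WT among CD8 cells, and for Anxa2, the member that did not follow the others in Foxp3 positive cells. All are on the plus strand, 5′ to 3′, and end at the base before the start. Capitals mark 3 of the searched motifs, namely the AP-1 motif, spelled TGANTCA, the binding motif of Sp family factors known as the GC box, spelled GGGCGG, and the letters of the core promoter element known as the TATA box, spelled TATAAA.
S100a6, chr3:90612644-90612893: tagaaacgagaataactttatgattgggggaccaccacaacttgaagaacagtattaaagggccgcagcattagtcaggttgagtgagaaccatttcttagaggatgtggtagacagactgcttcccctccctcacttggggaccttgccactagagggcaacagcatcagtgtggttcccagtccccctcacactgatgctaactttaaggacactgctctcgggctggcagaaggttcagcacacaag
S100a11, chr3:93520246-93520495: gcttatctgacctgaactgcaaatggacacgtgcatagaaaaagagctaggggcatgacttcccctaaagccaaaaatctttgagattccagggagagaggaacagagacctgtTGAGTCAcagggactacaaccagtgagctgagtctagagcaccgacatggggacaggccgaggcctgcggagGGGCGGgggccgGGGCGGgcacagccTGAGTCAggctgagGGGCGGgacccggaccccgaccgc
Anxa2, chr9:69453433-69453682: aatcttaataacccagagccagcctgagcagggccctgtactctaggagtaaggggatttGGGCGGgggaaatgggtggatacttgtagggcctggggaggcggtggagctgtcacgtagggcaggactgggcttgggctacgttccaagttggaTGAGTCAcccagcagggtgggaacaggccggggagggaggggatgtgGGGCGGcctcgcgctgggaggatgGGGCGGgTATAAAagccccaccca
Emb, chr13:117220323-117220572: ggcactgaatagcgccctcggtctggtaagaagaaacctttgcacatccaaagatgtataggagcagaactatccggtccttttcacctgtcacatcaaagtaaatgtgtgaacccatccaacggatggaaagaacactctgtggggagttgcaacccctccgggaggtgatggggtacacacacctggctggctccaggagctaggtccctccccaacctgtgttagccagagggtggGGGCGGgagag
Vim, chr2:13574061-13574310: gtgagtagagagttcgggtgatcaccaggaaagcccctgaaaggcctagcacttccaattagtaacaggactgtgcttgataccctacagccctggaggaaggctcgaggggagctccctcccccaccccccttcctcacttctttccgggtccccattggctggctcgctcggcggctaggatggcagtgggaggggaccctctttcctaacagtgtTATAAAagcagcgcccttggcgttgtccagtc
Each motif was searched on both strands. TATAAA was found in 3 of the 8 windows (S100a4 at 31, Vim at 32 and Anxa2 at 17 bases before the start), against 12.4% of 32851 windows of the same length. TGANTCA was found in 2 of the 8 (S100a11 and Anxa2), against 6.75%, and GGGCGG in 4 of the 8 (S100a11, Anxa2, Crip1 and Emb), against 32.7%. The STAT letters TTCNNNGAA were in 0 of the 8 windows, against 7.02%, and the forkhead letters GTAAACA in 0 of the 8, against 3.17%. No single motif was shared by all of these windows, and the S100a6 and S100a13 windows held none of the 5.

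In a given cell each of the 10 genes was mostly either unread or well above the detection limit of 1 FPKM. Where a gene was detected, its median over the cells of a class ran from 131.7 FPKM for S100a13 to 2255 FPKM for Vim, both in KO Foxp3 positive cells, and every class also held cells at 0 FPKM for every gene, so the ranges of all classes overlapped. A mean on the log2(FPKM + 1) scale therefore mostly follows the share of cells with the transcript. Shares and levels where detected are therefore given apart.

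**Figure D1:**
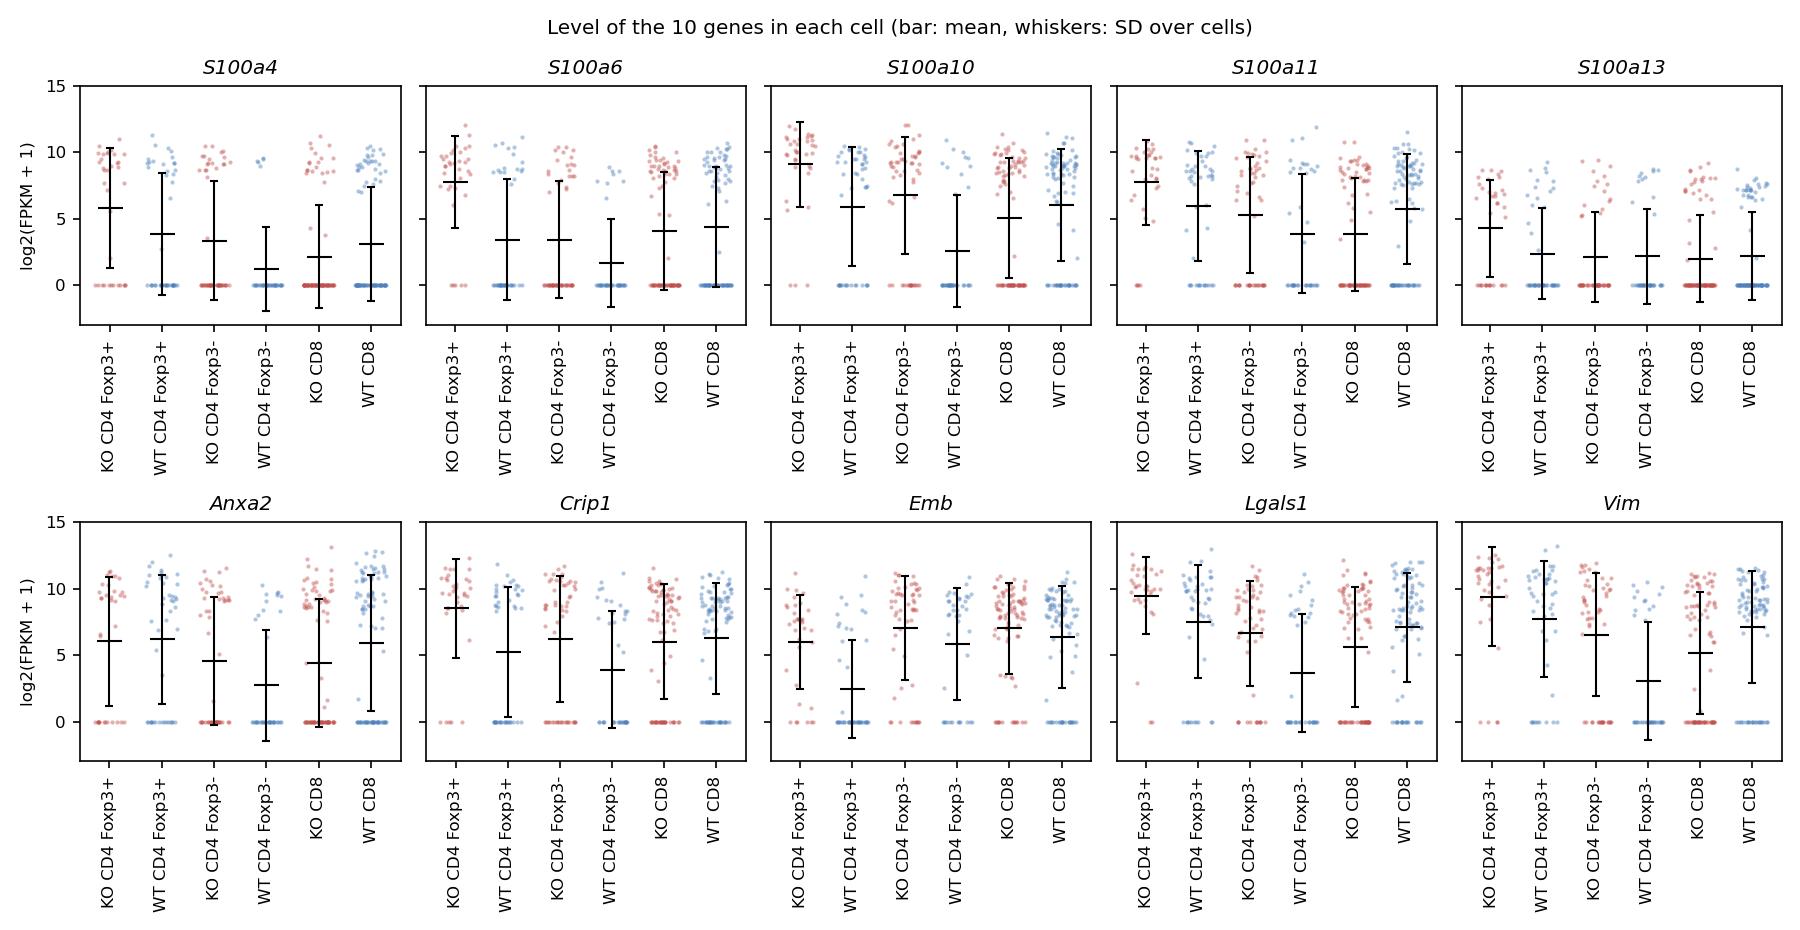
Level of each of the 10 genes in each cell, as log2(FPKM + 1), in KO and WT cells of the Foxp3 positive and Foxp3 negative CD4 classes and of the CD8 sort; bars are means and whiskers SDs over cells. Each gene forms a band at 0 and a spread of detected cells above it, which lies lowest for S100a13; an example is S100a10, whose mean was 9.11 in KO and 5.92 in WT Foxp3 positive cells.

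S100a10, the annexin A2 partner that carries membrane proteins to the cell surface, differed most between genotypes in CD4 cells. It was detected in 79.8% of KO CD4 cells (69.9% to 87.6%) and 48.2% of WT CD4 cells (37.3% to 59.3%), with highest values of 4387 FPKM in KO and 1927 FPKM in WT and medians of 633.1 FPKM in KO and 0 FPKM in WT. Its mean log2(FPKM + 1) was 7.68 ± 4.10 in KO and 4.38 ± 4.63 in WT CD4 cells (SD over cells), a difference of 3.30 that ranked first among the 3864 genes measured there. The higher KO level held on both sides of the Foxp3 division. Among Foxp3 positive cells 91.4% of KO and 65.2% of WT cells had S100a10, with a difference of means of 3.18, and among Foxp3 negative cells 72.2% of KO and 28.2% of WT cells had it, with a difference of 4.19, again the first in rank, of 3426 genes. In the CD8 sort the order was the opposite: 56.98% of KO (45.9% to 67.6%) and 70% of WT cells (59.4% to 79.2%) had S100a10, and the difference of means was -1.002.

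S100a6 (calcyclin) had its contrast mainly in Foxp3 positive cells. There it was detected in 85.7% of KO (69.7% to 95.2%) and 36.96% of WT cells (23.2% to 52.5%), with mean log2(FPKM + 1) of 7.78 ± 3.45 in KO and 3.42 ± 4.56 in WT, a difference of 4.36 and the second highest of 4894 genes. Among Foxp3 negative cells 38.9% of KO and 20.5% of WT cells had S100a6, with a difference of 1.78. Over the whole CD4 sort the shares were 57.3% in KO and 29.4% in WT, and the means differed by 2.53. CD8 cells of both genotypes were close, at 47.7% in KO and 50% in WT, with a difference of -0.29.

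S100a4, a motility-associated S100 protein that binds non-muscle myosin, was detected in 48.3% of KO (37.6% to 59.2%) and 29.4% of WT CD4 cells (20.02% to 40.3%). The highest value was 2055 FPKM in KO and 2539 FPKM in WT, so the top of the range did not separate the genotypes. Its means differed by 1.68 in CD4 cells, by 1.94 in Foxp3 positive cells (65.7% of KO and 43.5% of WT cells) and by 2.16 in Foxp3 negative cells (37.04% of KO and 12.8% of WT cells). CD8 cells again went the other way, with 24.4% of KO and 34.4% of WT cells and a difference of -0.94.

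S100a11, which pairs with annexin A1, was detected in 71.9% of KO (61.4% to 80.9%) and 60% of WT CD4 cells (48.8% to 70.5%), with a difference of means of 1.24. It was 1.77 higher in KO Foxp3 positive cells and 1.40 higher in KO Foxp3 negative cells. In the CD8 sort it was detected in 46.5% of KO (35.7% to 57.6%) and 67.8% of WT cells (57.1% to 77.2%), and the difference of means was -1.88. S100a13, which takes part in the release of proteins that lack a signal peptide, was the lowest of the 5 where detected, with medians of 136.5 FPKM in KO and 225.2 FPKM in WT CD4 cells that had it. It was detected in 60% of KO and 34.8% of WT Foxp3 positive cells, with a difference of 1.92, but in 29.6% of KO and 28.2% of WT Foxp3 negative cells, with a difference of -0.05. In the CD8 sort S100a13 was detected in 29.1% of KO and 32.2% of WT cells, with a difference of -0.22.

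Anxa2, the calcium-dependent membrane-binding partner of S100a10, did not follow S100a10. It was detected in 55.1% of KO (44.1% to 65.6%) and 49.4% of WT CD4 cells (38.4% to 60.5%), and its means of 5.13 ± 4.85 in KO and 4.60 ± 4.85 in WT differed by 0.53, the smallest difference of the 10 in CD4 cells. In Foxp3 positive cells the shares were 62.9% in KO and 65.2% in WT and the difference was -0.15, whereas in Foxp3 negative cells they were 50% in KO and 30.8% in WT and the difference was 1.82. CD8 cells that had Anxa2 held a median of 587.9 FPKM in KO and 1216 FPKM in WT, and the means differed by -1.53. The difference in CD4 cells also depended on which cells were kept: it was 1.57 without cells that carried other cell types' markers and -1.22 over the cells with at least 2000 detected genes. In Foxp3 positive cells it was 0.75 and -2.04 under the same 2 limits. Cells that carried such markers made up 31.4% of KO and 41.3% of WT Foxp3 positive cells.

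Lgals1, which encodes galectin-1, a secreted lectin that regulatory and activated T cells produce, was the most widely detected of the set in CD4 cells. It was found in 84.3% of KO (75.02% to 91.1%) and 62.4% of WT CD4 cells (51.2% to 72.6%), and cells that had it held a median of 802.95 FPKM in KO and 670.65 FPKM in WT. The means differed by 2.01 in CD4 cells, by 1.97 in Foxp3 positive cells and by 2.98 in Foxp3 negative cells, where 77.8% of KO and 43.6% of WT cells had the transcript. In the CD8 sort 62.8% of KO and 80% of WT cells had it, and the difference was -1.46.

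Vim encodes vimentin, the intermediate filament protein of lymphocytes. It was detected in 76.4% of KO (66.2% to 84.8%) and 58.8% of WT CD4 cells (47.6% to 69.4%), and cells that had it held a median of 1315 FPKM in KO and 861.8 FPKM in WT. The contrast was wider in Foxp3 negative cells, with 68.5% of KO and 33.3% of WT cells and a difference of 3.49, the second highest of 3426 genes. In Foxp3 positive cells the shares were 88.6% in KO and 80.4% in WT and the difference was 1.66. Vim also had the lowest difference of the set in the CD8 sort, at -1.95, with 58.1% of KO and 75.6% of WT cells.

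Crip1 encodes a small LIM-domain protein of a cysteine-rich family. It was detected in 73.03% of KO (62.6% to 81.9%) and 50.6% of WT CD4 cells (39.5% to 61.6%), and CD4 cells that had it held a median of 1025 FPKM in KO and 567.6 FPKM in WT. The difference of means was 2.50 in CD4 cells, 3.28 in Foxp3 positive cells and 2.32 in Foxp3 negative cells. The CD8 pools were close for Crip1, at 68.6% of KO and 71.1% of WT cells and a difference of -0.26.

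Emb encodes embigin, an immunoglobulin-family membrane glycoprotein that accompanies lactate transporters. In the CD4 sort it was detected in 82.02% of KO (72.5% to 89.4%) and 49.4% of WT cells (38.4% to 60.5%), and the contrast was widest in Foxp3 positive cells, of which 82.9% in KO (66.4% to 93.4%) and 32.6% in WT (19.5% to 48.02%) had Emb. The difference of means was 3.54 in Foxp3 positive cells and 1.18 in Foxp3 negative cells, where 81.5% of KO and 69.2% of WT cells had it. Over all kept cells, Emb was also the only one of the 10 with a higher mean log2(FPKM + 1) in KO than in WT CD8 cells. It was detected in 84.9% of KO and 76.7% of WT CD8 cells, and the difference was 0.65. On the plain FPKM scale, the CD8 means of Crip1 (473.3 in KO, 464.8 in WT) and S100a13 (56.8 in KO, 47.4 in WT) were also higher in KO. When the spread of detected genes was levelled between genotypes, S100a13, Crip1 and S100a6 were higher in KO too, as given below.

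Over the set, 8 of the 10 genes had a mean at least 2-fold higher in KO than in WT CD4 cells, against 9.91% of the 3864 genes measured, and 0 were 2-fold lower, against 0.983%. The median difference of the 10 was 2.04, where that of all measured genes was 0.23. In Foxp3 positive cells 9 of 10 were 2-fold higher, against 21.5% of all genes, and 0 were 2-fold lower, against 2.31%, with a median of 1.95 beside 0.42 over all genes. In Foxp3 negative cells 9 of 10 were 2-fold higher, against 13.5%, and 0 were 2-fold lower, against 3.15%, with a median of 1.99 beside 0.21. In CD8 cells 0 of 10 were 2-fold higher, against 0.555%, and 5 were 2-fold lower, against 13.3% of 4686 genes (S100a10, S100a11, Anxa2, Lgals1 and Vim), with a median of -0.97 beside -0.40. In all, 4 of the 10 were both 2-fold higher in KO CD4 cells and 2-fold lower in KO CD8 cells, against 1.91% of the 3621 genes measured in both sorts. These counts describe genes chosen for their differences between these very pools and do not support them.

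**Figure D2:**
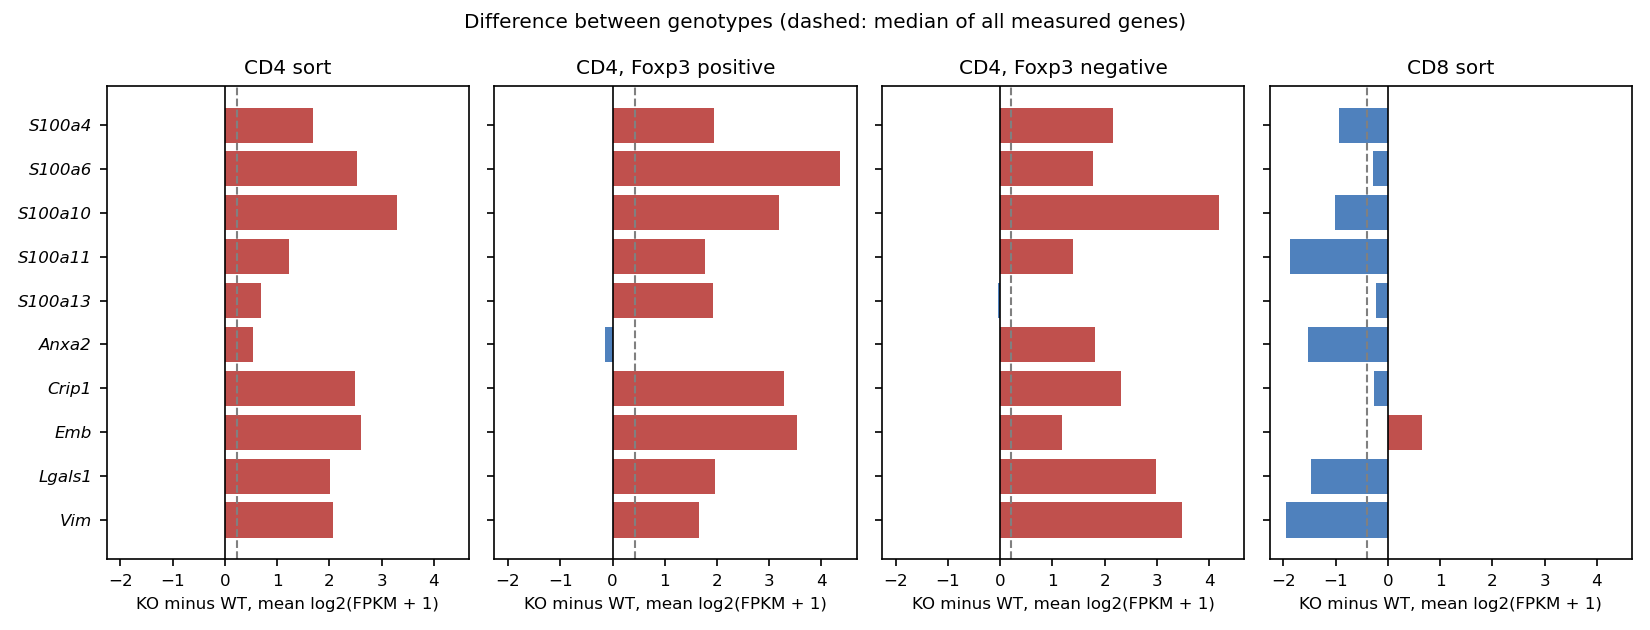
KO minus WT difference of mean log2(FPKM + 1) for each of the 10 genes in the CD4 sort, its Foxp3 positive and Foxp3 negative cells, and the CD8 sort; red bars are higher and blue bars lower in KO, and the dashed line is the median of all measured genes. All 10 bars are above 0 in the CD4 sort, where the median was 2.04, and 9 of 10 are below 0 in the CD8 sort, where the median was -0.97.

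The intervals on the shares did not overlap between KO and WT for 5 of the 10 genes in CD4 cells (S100a6, S100a10, Crip1, Emb and Lgals1), for 3 in Foxp3 positive cells (S100a6, Crip1 and Emb), for 3 in Foxp3 negative cells (S100a10, Lgals1 and Vim) and for 0 in CD8 cells. Among all measured genes the intervals were apart with KO higher for 2.04% in CD4 cells, 1.06% in Foxp3 positive and 0.846% in Foxp3 negative cells, and with KO lower for 4.99% in CD8 cells. These intervals take the cells of a single pool as units, so the counts describe these pools and cannot be read as differences between genotypes. Levels in the cells that had a gene were compared apart: the ratio of KO to WT medians among such cells had a median over the 10 genes of 1.13 in CD4 cells, 1.30 in Foxp3 positive cells, 1.14 in Foxp3 negative cells and 0.978 in CD8 cells. Among Foxp3 positive cells the highest ratio was 2.10 for S100a10, with 1290 FPKM in KO and 613.9 FPKM in WT cells that had it. Among Foxp3 negative cells Crip1 had the highest ratio, with 976.9 FPKM in KO and 326.1 FPKM in WT cells that had it.

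The Foxp3 positive share of the CD4 sort was 39.3% in KO (29.1% to 50.3%) and 54.1% in WT (42.96% to 64.98%). Between Foxp3 classes the mean log2(FPKM + 1) of Emb was lower, and those of the other 9 genes were higher, in Foxp3 positive cells of both genotypes. With both genotypes set to the same Foxp3 positive share of 46.7%, the KO minus WT differences were 3.72 for S100a10, 2.98 for S100a6, 2.77 for Crip1, 2.64 for Vim, 2.51 for Lgals1, 2.28 for Emb, 2.06 for S100a4, 1.57 for S100a11, 0.90 for Anxa2 and 0.87 for S100a13. Only Emb was lower than in the pools as sorted.

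The number of detected genes went with the levels of the 10: in the CD4 sort and both of its Foxp3 classes KO cells had the higher median of detected genes and of these differences, and in the CD8 sort WT cells had. Weighting cells so that both genotypes had the same distribution of detected genes gave a median difference of 1.57 in CD4 cells, 1.92 in Foxp3 positive cells and 1.46 in Foxp3 negative cells, with 7, 8 and 7 genes 2-fold higher, against 5.07% of all measured genes in CD4 cells, 11.5% in Foxp3 positive and 7.44% in Foxp3 negative cells under the same weighting. In CD8 cells the same weighting gave a median of -0.18 with 1 gene, Vim, 2-fold lower at -1.22, against 4.2% of all genes. Under it S100a13 (0.71), Crip1 (0.52), S100a6 (0.52) and Emb (0.26) were higher in KO CD8 cells, and the rest of the 10 were lower. Over CD8 cells with at least 2000 detected genes, Crip1 (0.63) and Emb (1.06) were higher in KO, and the rest of the 10 were lower. Cells with at least 2 markers of other cell types at 10 FPKM numbered 24 in KO and 24 in WT CD4 cells and 14 in KO and 20 in WT CD8 cells, and without them the medians were 2.52 in CD4 and -0.48 in CD8 cells.

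Foxp3 positive cells had higher means than Foxp3 negative cells for nearly all of the genes in both genotypes. In KO cells 9 of 10 were 2-fold higher in Foxp3 positive cells, against 30% of 4849 genes, and 1 (Emb) was 2-fold lower, against 2.35%. In WT cells 8 of 10 were 2-fold higher, against 23.9% of 3850 genes, and 1 (Emb) was 2-fold lower, against 4.81%. The widest differences were 4.35 for S100a6 in KO, where 85.7% of Foxp3 positive and 38.9% of Foxp3 negative cells had it, and 4.70 for Vim in WT, where 80.4% of Foxp3 positive and 33.3% of Foxp3 negative cells had it. Emb ran against the rest, at -1.02 in KO and -3.38 in WT. In KO the share of cells with Emb was 82.9% in Foxp3 positive and 81.5% in Foxp3 negative cells, with medians where detected of 210.48 and 570.18 FPKM. In WT these shares were 32.6% and 69.2%, with medians where detected of 167.15 and 451.65 FPKM. Anxa2 differed by 1.496 in KO and by 3.47 in WT, and S100a13 by 2.17 in KO and by 0.20 in WT. The median number of detected genes was 2152 in Foxp3 positive and 1746.5 in Foxp3 negative KO cells, and 1883.5 in Foxp3 positive and 1547 in Foxp3 negative WT cells. With equal detected genes the median difference in KO was 0.97 with 5 genes 2-fold higher, against 11.1% of all genes, and Anxa2 was at -0.19. In WT it was 1.37 with 7 genes 2-fold higher, against 13.6%, with Crip1 at -0.07 and S100a13 at -0.33. Without cells that carried other cell types' markers, S100a13 was at -0.93 in WT.

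**Figure D3:**
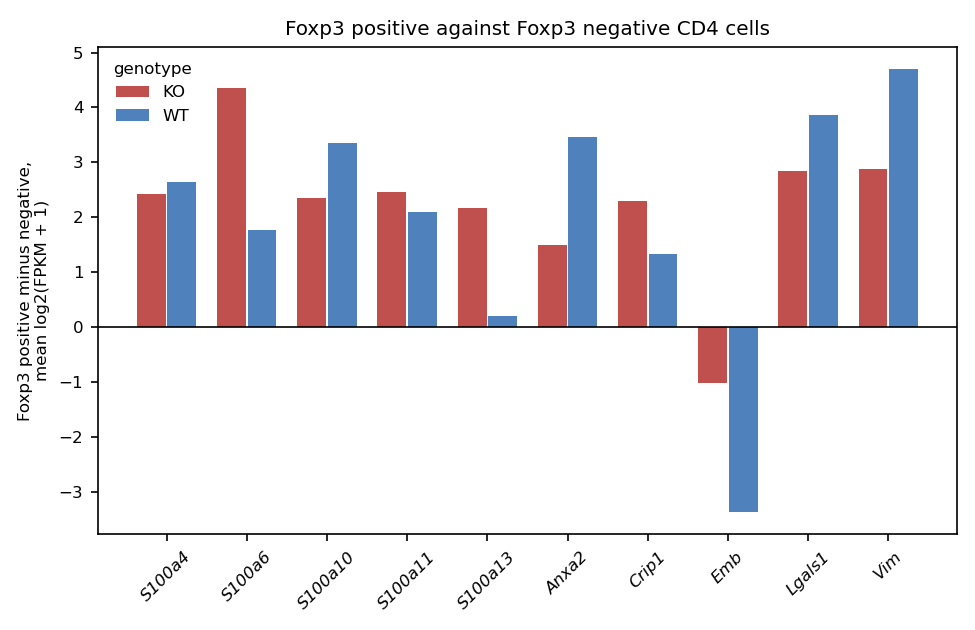
Foxp3 positive minus Foxp3 negative difference of mean log2(FPKM + 1) for each of the 10 genes in KO and WT CD4 cells. Emb is the only gene below 0, at -1.02 in KO and -3.38 in WT, and S100a13 in WT, at 0.20, is the smallest difference above 0.

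Between the sorts, the order of CD4 and CD8 cells differed with genotype. In KO cells 7 of 10 genes were 2-fold higher in CD4 than in CD8 cells, against 8.24% of 3956 genes, and 0 were 2-fold lower, against 4.55%. The largest were 2.62 for S100a10, 2.52 for Vim and 2.42 for S100a11, and Emb was at -0.39. In WT cells 0 of 10 were 2-fold higher in CD4 cells, against 1.54% of 4729 genes, and 7 were 2-fold lower, against 23.4%, with Emb lowest at -2.35 and S100a13 at 0.06. The WT pools differed widely in detected genes (median 1661 in CD4 and 2148 in CD8 cells), and the median of this contrast changed sign when that was levelled: -1.44 became 0.11 with equal detected genes and 0.80 over cells with at least 2000. Emb did not change sign, at -2.05 with equal detected genes and -2.54 over cells with at least 2000. With equal detected genes 1 of the 10 was 2-fold higher in WT CD4 cells (S100a11, 1.19), against 6.03% of all genes, and 1 was 2-fold lower (Emb), against 5.9%. The KO median of 1.62 was 1.87 and 2.46 under the same settings.

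Ordered over the 6 classes that share no cell, the mean was highest in KO Foxp3 positive cells for 8 of the 10 genes. Anxa2 was highest in WT Foxp3 positive cells (6.19, beside 6.04 in KO) and Emb in KO Foxp3 negative cells (7.03). The lowest class was WT Foxp3 negative for 7 genes, KO CD8 for S100a11 and S100a13, and WT Foxp3 positive for Emb. The gap between the highest and lowest class exceeded the largest SD over cells for 6 of the 10 genes, the widest being 6.54 for S100a10. None of the 50 gaps between neighbouring classes exceeded the smaller of the 2 SDs. The widest was 3.404 for S100a6, between KO Foxp3 positive and WT CD8 cells. The shares of all genes under these rules were not computed, so these counts describe the members only. Median detected genes were also highest in KO Foxp3 positive cells (2152) and lowest in WT Foxp3 negative cells (1547). The part of detected genes in this order was not tested.

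Counting the genes cell by cell, a KO CD4 cell held a median of 7 of the 10 and a WT CD4 cell 5. Foxp3 positive cells held a median of 8 in KO and 5.5 in WT, Foxp3 negative cells 6 in KO and 3 in WT, and CD8 cells 5 in KO and 6 in WT. Cells holding 8 or more of the set made up 77.1% of KO (59.9% to 89.6%) and 32.6% of WT Foxp3 positive cells (19.5% to 48.02%), and 25.9% of KO (14.96% to 39.7%) and 5.13% of WT Foxp3 negative cells (0.627% to 17.3%). In the CD8 sort this share was 25.6% in KO and 33.3% in WT. All 10 were found together in 11.2% of KO CD4 cells and in 0 of 85 WT CD4 cells, which allows a share of up to 3.53% (3 cells of the total), and in 4.65% of KO and 10% of WT CD8 cells. The count went with the number of detected genes, with a Spearman correlation over the cells of a pool of 0.72 in KO and 0.71 in WT CD4 cells and 0.46 in KO and 0.68 in WT CD8 cells.

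**Figure D4:**
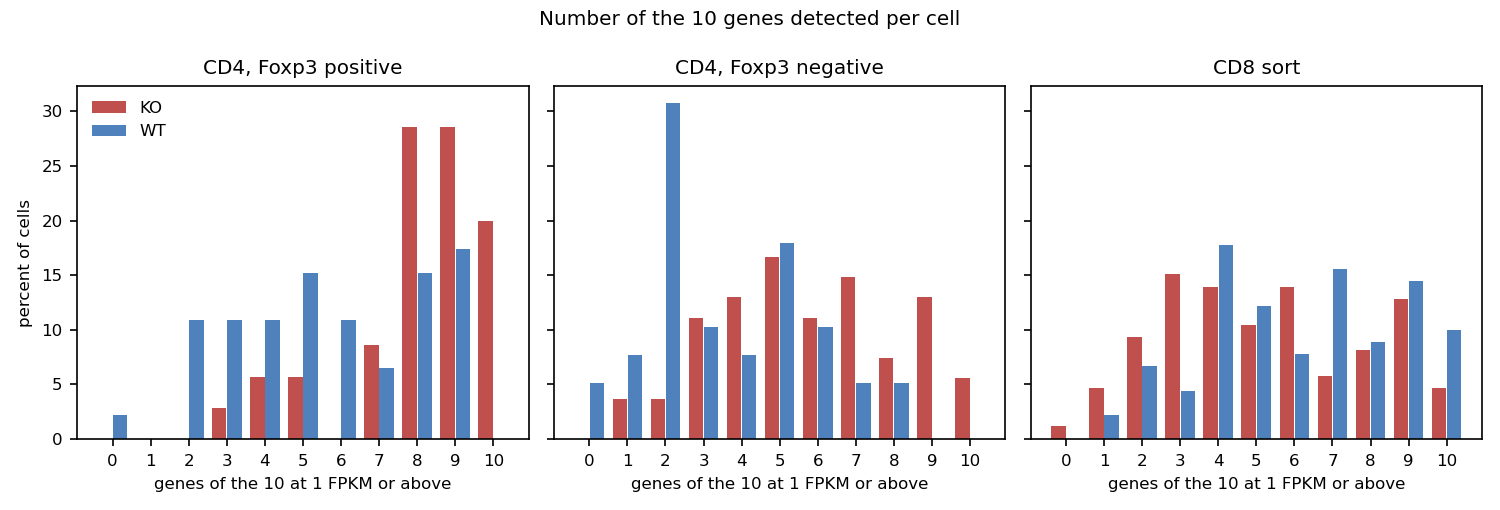
Percent of cells, on the y axis, by how many of the 10 genes were at 1 FPKM or above, for KO and WT cells of the Foxp3 positive and Foxp3 negative CD4 classes and the CD8 sort. KO Foxp3 positive cells pile up at 8 or more (77.1%, beside 32.6% in WT), and WT Foxp3 negative cells at low counts, with a median of 3.

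Averaged over pools, the genes other than Emb varied together. The correlation used was a partial Spearman over the cells of a pool, given the number of detected genes, averaged over the 4 pools. Its points share a pool and its depth. In the CD4 pools it ran over Foxp3 positive and Foxp3 negative cells together, and the part of these classes in the correlations was not tested. Apart from Emb, each gene correlated positively with the 8 others on this average, and the 3 highest values were all with Lgals1, at 0.50 for Anxa2 (0.48 to 0.53 over pools), 0.47 for S100a6 and 0.44 for Vim. The complex partners S100a10 and Anxa2 were at 0.24, and the neighbouring genes S100a4 and S100a6 at 0.34 (0.07 to 0.50 over pools). S100a13 was the least tied of these 9, with a median of 0.15, and in single pools it reached -0.12 with Anxa2 in WT CD4 cells, -0.08 with Crip1 in KO CD4 cells and -0.01 with S100a6 in WT CD8 cells. Anxa2 with Crip1 was at -0.02 in WT CD4 cells. On the same average Emb was below 0 with all 9 others, with a median of -0.13, and lowest with Lgals1 at -0.32 and Anxa2 at -0.25. In KO CD4 cells, however, Emb was above 0 with S100a4 (0.16), Crip1 (0.03) and S100a11 (0.01).

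**Figure D5:**
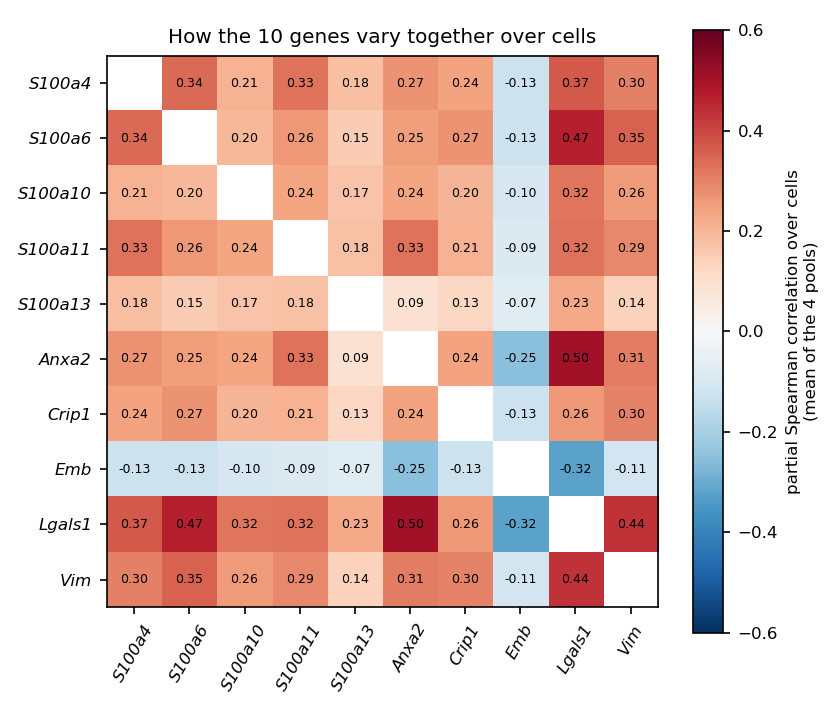
Partial Spearman correlation of each pair of the 10 genes over the cells of a pool, given the number of detected genes, as the mean of the 4 pools; the colour scale gives its value. Anxa2 with Lgals1 is highest at 0.50, and the row of Emb is below 0 throughout, down to -0.32 with Lgals1.

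The genes whose pattern over cells was most like the mean of the 10 were sought among 2361 genes detected in at least 20% of the cells of every pool, by the same partial correlation. They were Actg1 (0.46), Ahnak (0.45), Actb (0.45), Tmsb4x (0.43), Cd52 (0.41), Capg (0.39), Rac2 (0.36), Glrx (0.36), Prr13 (0.35) and Prelid1 (0.34). Actb and Actg1 encode the cytoplasmic actins, Tmsb4x an actin-monomer binding thymosin, Capg an actin-capping protein, Rac2 a small GTPase of blood cells, and Ahnak a large scaffold protein that binds the S100a10 and annexin A2 complex. Actg1 differed by 1.20 between KO and WT CD4 cells and by -0.27 between KO and WT CD8 cells. Tmsb4x differed by 1.01 in CD4 and by -0.58 in CD8 cells. All of these similar genes were higher in KO than in WT CD4 cells. In CD8 cells Ahnak (0.44), Capg (0.17), Rac2 (0.10) and Glrx (0.03) were higher in KO, and the rest of them were lower. All were also higher in Foxp3 positive than in Foxp3 negative cells of both genotypes. These differences were widest for Capg (5.53 in KO, 5.52 in WT) and Glrx (5.54 in KO, 6.53 in WT). The part of the Foxp3 classes in the likeness of these genes was not tested. The opposite end of the partial correlation, looked up after the values were seen, held Satb1 (-0.40), Tcf7 (-0.36) and Lef1 (-0.33), transcription factors known from naive and memory-like T cells. It also held the ribosomal protein genes Rpl13 (-0.34) and Rps4x (-0.33).

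Other families gave a mixed picture, to be read against the 9.91% of all measured genes that were 2-fold higher in KO CD4 cells and the 13.3% that were 2-fold lower in KO CD8 cells. Of 17 S100 genes in the table, the 5 members were the only ones measured, meaning at 1 FPKM in at least 20% of the cells of a class compared, and S100a1 was found in 1.12% of KO and 3.53% of WT CD4 cells. Of 4 annexins other than Anxa2 measured in CD4 cells, 1 was 2-fold higher in KO (Anxa6, 1.45), and of 2 other galectins 1 was (Lgals9, 1.75), whereas Lgals3bp, the gene of a galectin-binding protein, was at -0.23. Of 3 other intermediate filament genes, 2 were 2-fold higher in KO CD4 cells: Lmna (1.01) and Lmnb1 (1.23), both lamins. Lmna was found in 88.6% of KO and 50% of WT Foxp3 positive cells and in 22.2% of KO and 20.5% of WT Foxp3 negative cells. Of 9 measured genes listed as partners of the members, 1 was 2-fold higher in KO CD4 cells, a share near that of all genes. It was Bsg (1.11), the gene of basigin, the closest relative of embigin, and its binding to any member was not examined here. In CD8 cells 0 of 4 other annexins and 1 of 4 genes of galectins and their binding protein (Lgals3bp, -1.01) were 2-fold lower in KO. So was 1 of 8 listed partners (Bsg, -1.30), again a share near that of all genes. None of these genes was 2-fold higher.

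Among 28 measured genes of T cell migration and tissue exit, 27 had a higher mean in KO than in WT CD4 cells, against 66.1% of all measured genes. Of the 28, 9 were 2-fold higher, against 9.91% of all genes, and 0 were 2-fold lower, with a median difference of 0.65 beside 0.23 for all genes. These 9 were Cd69 (2.55), which holds cells in tissue by opposing the egress receptor S1pr1, the integrin chains Itgb7 (2.39), Itgb2 (1.38) and Itgb1 (1.17), the chemokine receptors Cxcr6 (1.62) and Ccr2 (1.06), the sphingosine-phosphate receptor S1pr4 (1.22), and the actin-associated Lsp1 (1.20) and Tmsb4x (1.01). Itgb7 was found in 77.5% of KO (67.4% to 85.7%) and 52.9% of WT CD4 cells (41.8% to 63.9%). Cd69 was found in 74.3% of KO and 43.5% of WT Foxp3 positive cells, with a difference of 4.19, and in 61.1% of KO and 43.6% of WT Foxp3 negative cells, with a difference of 1.13. Cxcr6 differed in the other class, by 3.27 in Foxp3 negative cells, where 50% of KO and 17.9% of WT cells had it, and it was found in 20% of KO and 26.1% of WT Foxp3 positive cells. In CD8 cells 0 of 27 were 2-fold higher in KO and 2 were 2-fold lower (Itgb2 and Ezr, both -1.35), against 13.3% of all measured genes, with a median of -0.01. In Foxp3 positive cells 24 of 27 had a higher mean in KO, against 72.4% of all genes. In Foxp3 negative cells 21 of 26 had, against 63%, and 1 was 2-fold lower, against 3.15%. Median detected genes were higher in KO (1868) than in WT CD4 cells (1661), and this list was not recomputed with them levelled. This list and those of the other families were chosen with earlier results of these data known, so their counts only describe these pools.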

How the data were processed

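Smart-seq2 libraries of single T cells were deposited as 1 table of FPKM values. Per the submitters' processing notes, Bowtie, RSEM and mm10 were used, with no version given in the sources used here; per the labels, the values are TMM-normalized FPKM from RSEM gene estimates, deposited by the authors. Reads per cell are not given in the sources used here, so depth is known only as detected genes. The table has 375 columns, of which 4 match no sample and were not used, and 23366 genes, of which 4 entries with repeated symbols were left out. Cells with fewer than 1000 genes at 1 FPKM were left out (21 cells; the sparsest kept cell had 1006 genes and the richest left out 996); no cells shared identical values, and doublets were not called.

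Values were compared as means of log2(FPKM + 1), with a pseudocount of 1, among genes at 1 FPKM in at least 20% of the cells of either class. Throughout, 2-fold means a difference of 1 between such means, which is not a ratio of mean FPKM and understates low genes. All 10 members passed that filter in all 8 comparisons. With 1 pool per group no test was possible, so a difference is a description. Named are all 10 members, the list genes past 2-fold between genotypes, and the 10 most similar genes. The members and lists were chosen with earlier results of these data known. Alternatives were other pseudocounts, cell filters, weightings and scalings; equal Foxp3 shares were added after seeing the data. Python 3.11.15, pandas 2.3.3, NumPy 2.4.6, SciPy 1.17.1 and Matplotlib 3.10.9 were used, and the code was tested on simulated data.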

Additional observations from a re-analysis of the deposited data

Results flagged for a closer look

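For 4 genes, KO and WT cells differed by at least 1 in mean log2(FPKM + 1), in opposite directions in the CD4 and CD8 sorts. KO was higher in CD4 and lower in CD8 cells, as for 1.91% of the 3621 genes measured in both sorts. The difference between the sorts was not tested, since each genotype and sort is a single pool. For S100a10 the KO minus WT difference was 3.30 in CD4 and -1.002 in CD8 cells, which are 4.30 apart. Vim was at 2.08 in CD4 and -1.95 in CD8 cells, 4.02 apart. Lgals1 was at 2.01 in CD4 and -1.46 in CD8 cells, 3.47 apart. S100a11 was at 1.24 in CD4 and -1.88 in CD8 cells, 3.12 apart. With equal detected genes the CD8 differences were -0.27 for S100a10, -1.22 for Vim, -0.32 for Lgals1 and -0.76 for S100a11, and the CD4 differences 2.79 for S100a10, 1.55 for Vim, 1.59 for Lgals1 and 0.41 for S100a11. Over cells with at least 2000 detected genes the CD4 differences were 1.14 for S100a10, 0.63 for Vim, 0.54 for Lgals1 and 1.25 for S100a11, and the CD8 differences -0.26 for S100a10, -1.12 for Vim, -1.17 for Lgals1 and -2.32 for S100a11, so under this limit only S100a11 was still 2-fold apart in both sorts.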

How the results depend on the processing

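Of 770 differences of single genes recomputed under the alternatives, 541 moved by less than 1.5-fold, others moved further and 11 reversed a 2-fold difference; the causes were not tested. A pseudocount of 0.1 gave KO minus WT medians of 2.70 (CD4), 2.72 (Foxp3 positive) and 2.69 (Foxp3 negative), and Foxp3 positive minus negative medians of 3.27 in KO and 3.30 in WT. A pseudocount of 10 gave 1.39 (CD4) and 1.30 (Foxp3 negative) between genotypes, 1.59 in KO (0 genes 2-fold lower) and 1.47 in WT between Foxp3 classes, 3 genes 2-fold lower in KO CD8 cells, and 2 lower in CD4 than CD8 WT cells.

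Cells with at least 2000 genes gave KO minus WT medians of 1.12 in CD4 (1 lower) and 0.83 in Foxp3 positive cells (4 higher, 1 lower; S100a4 at -0.12), and 1 gene higher in KO CD8 cells. CD4 minus CD8 medians were then 2.46 in KO and 0.80 in WT, with 4 higher and 1 lower in WT and S100a10 at 1.43, Anxa2 at 1.14, Lgals1 at 1.05, Vim at 0.93 and Crip1 at 0.63. Foxp3 positive minus negative in KO was 0.92, with 4 higher, 2 lower and S100a4 at -1.53; only 16 KO and 6 WT Foxp3 negative cells reach that limit.

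Equal detected genes gave -0.18 with 1 lower for KO minus WT in CD8. For CD4 minus CD8 in WT they gave 0.11, with 1 higher, 1 lower, Anxa2 at 0.26 and Lgals1 at 0.25. Between Foxp3 classes they gave 0.97 in KO (5 higher, Anxa2 at -0.19) and 1.37 in WT (Crip1 at -0.072, S100a13 at -0.33). Less the median of all genes, 1 gene was higher in KO CD8 cells, 4 were lower in CD4 than CD8 WT cells, and the KO Foxp3 median was 1.79. Without cells bearing other markers the Foxp3 positive KO minus WT median was 3.02. In the KO Foxp3 comparison 0 genes were lower with cells of at least 500 genes or a Foxp3 limit of 10 FPKM. No paired analysis was possible because each group is 1 pool with no test, and the replicate numbers only name cells. With 1 pool per group the spread between animals is unknown, and shares depend on a depth seen only as detected genes.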
